A study of Drosophila melanogaster with 6 samples.

Results

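The 10 genes described here encode the *Drosophila* ecdysone receptor and the transcription factors that relay the hormone signal: *EcR*, *usp*, *br*, *Eip74EF*, *Eip75B*, *Eip78C*, *Hr3* (also called *Hr46*), *Hr4*, *Hr39* and *ftz-f1*. They were chosen by symbol as a guide to the developmental stage of the discs, and all 10 were found among the 17478 genes of the deposited count table. RNA came from wing imaginal discs, which give rise to the adult wings, of female larvae in the third instar. There were 3 libraries of *UAS-CycGΔP*, *da-Gal4/+* discs (CycGΔP discs) and 3 libraries of *da-Gal4/+* discs (control discs). Gal4 switches on *UAS-CycGΔP*, a transgene for a Cyclin G protein that lacks the PEST domain, a stretch linked to protein degradation. The *da-Gal4* driver is active throughout the larva and is carried by both groups, so the transgene was expressed in the whole animal and not in the discs alone. The study's methods write the first genotype as *da-Gal4/UAS-CycGΔP*, and give 150 pooled discs per library and independent crosses for the replicates. Age is stated only as the third instar, and no finer staging of the larvae is given in the sources used here.

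Ecdysone is the steroid hormone whose pulses time moulting and metamorphosis in insects. Its active form binds a heterodimer of the nuclear receptors EcR and Usp, which switches on early genes such as *br*, *Eip74EF* and *Eip75B*. These act with the receptor on early-late genes such as *Eip78C*, *Hr3*, *Hr4* and *Hr39*, and *ftz-f1* follows in the prepupa once the hormone level has dropped. In wing discs the pulse at the end of larval life is followed by eversion and the start of pupal differentiation, so the levels of these genes change rapidly in the hours around pupariation.

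The library totals ranged from 21853360 to 40059450 counts, and every replicate pair of a group differed beyond sampling noise (chi-square divided by the number of genes at least 40.3). Levels are given in CPM, which is counts scaled to a library of 1000000 counts after TMM normalisation, a correction for composition. *CycG*, whose counts hold transgene and endogenous reads alike, was at 900 to 1022 CPM in CycGΔP discs against 686 to 788 CPM in control discs, so the groups did not overlap (log2 fold change 0.42, edgeR adjusted p-value 0.0909). The 7 wing disc markers that were matched summed to between 1483 and 1811 CPM in all 6 libraries. All 7 had log2 fold changes above 0, beside 52.3% of all tested genes. Of these markers edgeR called 0, with 1 higher (*dpp*, log2 fold change 0.34) at an unadjusted p-value under 0.05, beside 6.65% of all tested genes. For *ap*, *dpp* and *Antp* every CycGΔP value lay above every control value, beside 9.98% of all tested genes. The summed level of 7 fat body markers ranged from 742 to 22890 CPM in control discs, highest in replicate 1, and from 4686 to 7871 CPM in CycGΔP discs, and edgeR called 0 of the 7, with 0 at an unadjusted p-value under 0.05. The summed level of 9 muscle and muscle precursor markers was 290 to 385 CPM in control discs and 259 to 281 CPM in CycGΔP discs. *Mhc*, the muscle myosin heavy chain, was called lower (log2 fold change −2.34, edgeR adjusted p-value 0.0449), beside 0.733% of all tested genes. The other contractile genes *Act57B*, *Tm2* and *up* had log2 fold changes from −1.80 to −1.47 that did not pass. For all 4 contractile genes every CycGΔP value lay below every control value, beside 12.1% of all tested genes in this direction. The 5 precursor markers, *twi*, *Mef2*, *htl*, *stumps* and *Him*, had log2 fold changes from −0.11 to 0.14, and none passed. The 3 trachea markers summed to 647 to 805 CPM in CycGΔP discs and 494 to 639 CPM in control discs, without overlap. Of the 3, *tnc* (log2 fold change 0.53, edgeR adjusted p-value 0.275) was the 1 that separated, beside 9.98% of all tested genes in this direction. The 8 salivary gland markers summed to between 12.7 and 188 CPM, highest in CycGΔP replicate 3, and 6 haemocyte markers to between 35.1 and 183 CPM, highest in CycGΔP replicate 2. The male-specific RNA *roX1* stood at 14.0 to 47.5 CPM in control discs and 2.90 to 4.85 CPM in CycGΔP discs. It was not called (log2 fold change −3.18, edgeR adjusted p-value 0.0613), though every CycGΔP value lay below every control value, beside 12.1% of all tested genes. *roX2*, too low to be tested, had 47, 65 and 8 counts in control discs and 0 in every CycGΔP library. The male accessory gland genes *Acp26Aa* and *Acp26Ab* were called higher (edgeR adjusted p-values 0.00777 and 0.0164), beside 0.691% of all tested genes. They had 0 counts in every control library. In CycGΔP discs *Acp26Aa* had 99, 101 and 127 counts and *Acp26Ab* 55, 65 and 94. The male markers thus went in both directions. Whether the libraries differed in male tissue was not tested. In bulk tissue, fewer cells of a type and less RNA per cell cannot be told apart.

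Of the 10 genes, *Eip78C* was up-regulated in CycGΔP discs and no other gene passed the threshold, an adjusted p-value under 0.05 over the 9408 genes tested with edgeR's quasi-likelihood test. Over all tested genes 1.42% passed it, 0.691% as higher and 0.733% as lower. Among the 10 genes, edgeR called 0 lower, with 0 at an unadjusted p-value under 0.05, beside 8.07% of all tested genes, and DESeq2 and limma voom also called 0 lower. For *Eip78C*, *Hr3*, *Hr4* and *Hr39* all 3 CycGΔP values lay above all 3 control values, whereas 9.98% of all tested genes separated in this direction and 22.0% in either. No member separated in the other direction, as did 12.1% of all tested genes. The log2 fold change was above 0 for 8 of the 10 genes, with a median of 0.25 beside 0.012 over all tested genes. At an unadjusted p-value under 0.05, 3 of the 10 genes were higher (*Eip78C*, *Hr4* and *Hr39*), beside 6.65% of all tested genes as higher and 14.7% in either direction. The 4 separated genes are early-late genes, and the receptor genes, the early genes and *ftz-f1* overlapped between the groups. Only *Eip78C* of the 4 was called, and control replicate 1 was the lowest control library for each of them. A difference between these classes was not tested.

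**Figure D1:**
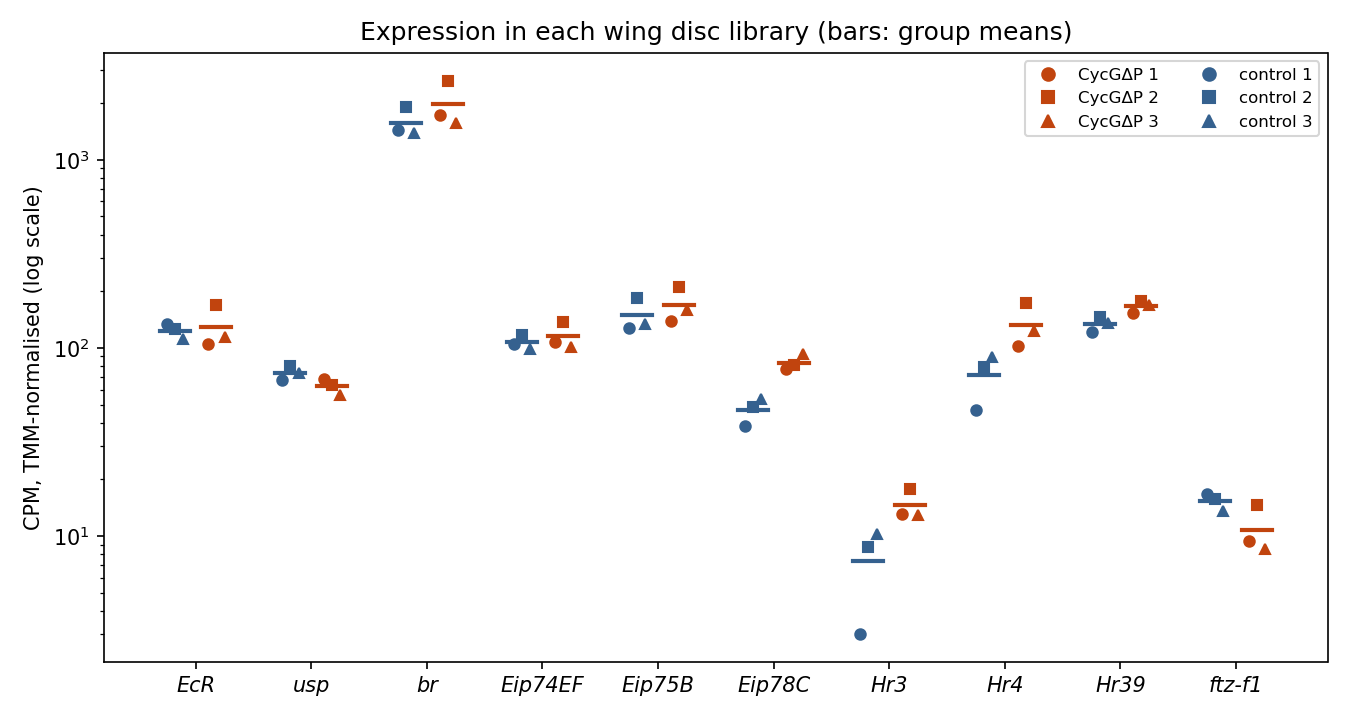
Expression of the 10 genes in each library, as TMM-normalised CPM on a log axis, with control libraries in blue, CycGΔP libraries in orange, a marker shape for each replicate and a bar for each group mean. The groups separate for *Eip78C*, *Hr3*, *Hr4* and *Hr39* and overlap for the other 6 genes.

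**Figure D2:**
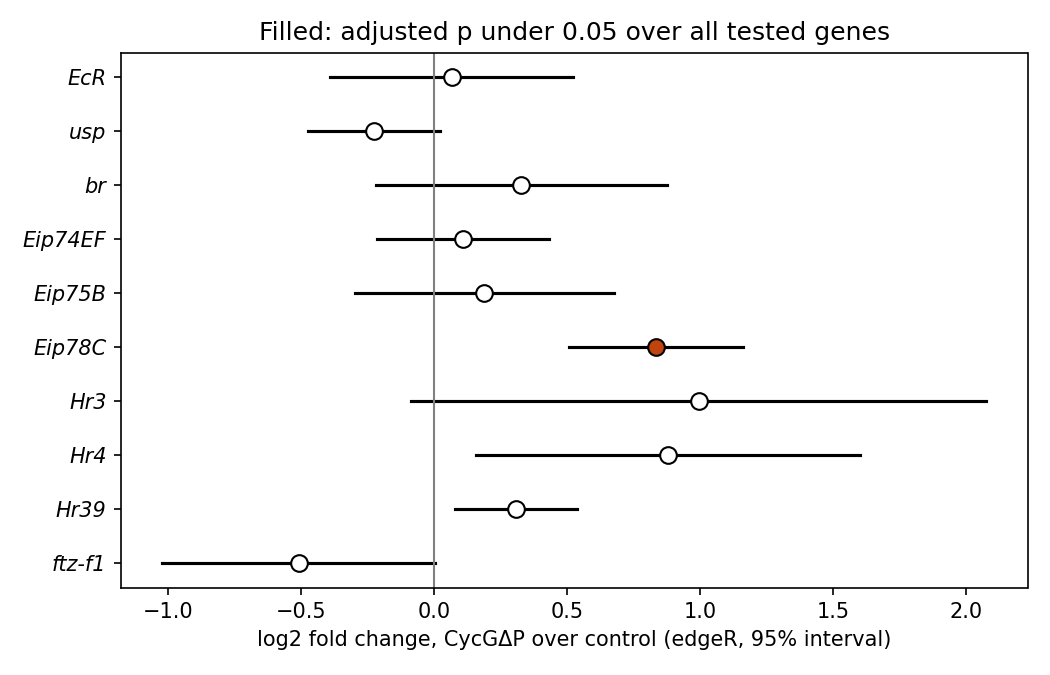
Log2 fold change of each gene, CycGΔP over control, with its 95% interval from the edgeR fit. Only *Eip78C* (0.83) is filled, as the gene with an adjusted p-value under 0.05, and the widest interval is that of *Hr3* (−0.09 to 2.08).

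*EcR* (2R, 6087873 to 6169087, minus strand of dm6) encodes the ecdysone-binding receptor. Its level was 104, 169 and 115 CPM in CycGΔP discs and 134, 126 and 111 CPM in control discs, here and throughout in the order of replicates 1, 2 and 3. CycGΔP replicate 2 was the highest library and CycGΔP replicate 1 the lowest, so the control values lay within the CycGΔP range. On the log2 scale the difference was 0.06, with a 95% interval from −0.39 to 0.52 (edgeR adjusted p-value 0.903). Without CycGΔP replicate 2 the log2 fold change was −0.17.

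*usp* (X, 2038798 to 2042311, minus strand) encodes the partner of EcR, the fly orthologue of the vertebrate retinoid X receptors. It had 68.5, 63.8 and 55.8 CPM in CycGΔP discs and 67.3, 79.8 and 73.1 CPM in control discs. The groups overlapped only because CycGΔP replicate 1 was slightly above control replicate 1. Its log2 fold change was −0.23 (interval −0.48 to 0.02, edgeR adjusted p-value 0.374). Counted within each library, *EcR* exceeded *usp* by 1.52, 2.65 and 2.06 fold in CycGΔP discs and by 1.99, 1.57 and 1.52 fold in control discs, which overlap. These ratios of counts are not corrected for length.

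Among the early genes, *br* (X, 1575132 to 1664869, plus strand) encodes the BTB zinc finger factors of the *broad* locus, which specify the pupal stage. Its level was 1719, 2632 and 1572 CPM in CycGΔP discs and 1436, 1897 and 1387 CPM in control discs. It ranked 91 by control level among the 9408 tested genes, far above every other member. Replicate 2 was the highest library in both groups, and the log2 fold change of 0.33 did not pass (interval −0.22 to 0.88, edgeR adjusted p-value 0.534).

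*Eip74EF* (3L, 17558672 to 17619325, minus strand), which encodes ETS-domain factors, had 108, 137 and 101 CPM in CycGΔP discs and 105, 118 and 98.6 CPM in control discs. Its log2 fold change was 0.11 (interval −0.22 to 0.43, edgeR adjusted p-value 0.746). The groups interleaved, and only CycGΔP replicate 2 stood above all controls.

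*Eip75B* (3L, 17950953 to 18064696, minus strand) encodes a haem-binding nuclear receptor that can dimerise with Hr3 and inhibit it. It had 139, 210 and 159 CPM in CycGΔP discs and 128, 184 and 134 CPM in control discs. As for *br*, replicate 2 was the highest in both groups. CycGΔP over control, the log2 fold change was 0.19 (interval −0.30 to 0.68, edgeR adjusted p-value 0.691), and it was 0.0046 without CycGΔP replicate 2.

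Each of the early genes and *EcR* has several promoters, and the count of a gene sums all of its isoforms. The annotation lists 16 transcripts from 9 start sites for *br*, 7 from 7 for *Eip75B*, 5 from 3 for *Eip74EF* and 6 from 4 for *EcR*. The same limit holds for *Eip78C*, *Hr3* and *ftz-f1*, with 3 start sites each, and for *Hr4* and *usp*, with 2 each. *Hr39* has 4 transcripts from 1 start site. A switch between isoforms of such a gene, known for *br*, *Eip74EF* and *EcR* around pupariation, is therefore not visible in these counts.

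*Eip78C* (3L, 21226609 to 21266503, plus strand) encodes a nuclear receptor related to Eip75B. Its level was 77.1, 80.7 and 92.4 CPM in CycGΔP discs and 38.5, 48.4 and 53.5 CPM in control discs. The lowest CycGΔP library stood well above the highest control library. The group means of 83.4 ± 8.03 and 46.8 ± 7.64 CPM (SD, n = 3 each) correspond to a ratio of 1.78 and a log2 fold change of 0.83 (interval 0.51 to 1.16, standard error 0.14, edgeR adjusted p-value 0.0462). Its p-value was the 126th smallest, near the last of the 134 genes called. None of the 6 fits that left out 1 library called it, with edgeR adjusted p-values from 0.067 to 0.193, while the log2 fold change kept between 0.69 and 0.94. DESeq2 called it both without and with a prior on fold changes, and limma voom did not (adjusted p-value 0.0508).

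*Hr3* (2R, 10203995 to 10237348, minus strand) encodes an orphan nuclear receptor of the ROR type that activates *ftz-f1* in the prepupa. It was the least abundant member in control discs, with 13.1, 17.9 and 12.9 CPM in CycGΔP discs and 3.01, 8.76 and 10.2 CPM in control discs, from 94 to 376 counts a library. Every CycGΔP library was above every control library, and control replicate 1 was far below the other controls. The ratio of the means was 1.99 and the log2 fold change 0.99 (interval −0.09 to 2.08, edgeR adjusted p-value 0.373). The control libraries had a coefficient of variation of 52.1%, whereas counting error at the lowest count is 10.3%. Without control replicate 1 the log2 fold change was 0.60 (edgeR adjusted p-value 0.202).

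*Hr4* (X, 1941940 to 2007956, plus strand) encodes an orphan nuclear receptor known as a repressor of early genes and a coordinator of growth and maturation. It had 102, 172 and 122 CPM in CycGΔP discs and 46.7, 79.4 and 89.4 CPM in control discs. The groups did not overlap, with a narrow gap between control replicate 3 and CycGΔP replicate 1. The mean was 132 ± 36.2 CPM in the first group and 71.8 ± 22.3 CPM in the second (SD, n = 3 for both), a ratio of 1.84, with a log2 fold change of 0.88 (interval 0.16 to 1.60, edgeR adjusted p-value 0.243). DESeq2 called *Hr4* as higher both without a prior (adjusted p-value 0.0293) and with it (adjusted p-value 0.0289). In those fits 2 of the 10 genes were thus called as higher, beside 2.37% of all genes without the prior and 2.40% with it (5.44% and 5.56% in either direction). Without control replicate 1 the log2 fold change of *Hr4* in edgeR was 0.63 (adjusted p-value 0.273).

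*Hr39* (2L, 21237250 to 21259675, plus strand) encodes a nuclear receptor closely related to Ftz-f1. Its level was 153, 178 and 169 CPM in CycGΔP discs and 122, 146 and 135 CPM in control discs. The groups did not overlap, and replicates were closer to each other than for any other member in CycGΔP discs, with a coefficient of variation of 7.70%. Between the groups the log2 fold change was 0.31 (interval 0.08 to 0.54, edgeR adjusted p-value 0.202).

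*ftz-f1* (3L, 18750607 to 18801309, minus strand) encodes the nuclear receptor that makes prepupal tissues competent to respond to the next ecdysone pulse. It had 9.45, 14.5 and 8.48 CPM in CycGΔP discs and 16.7, 15.8 and 13.7 CPM in control discs. CycGΔP replicate 2 lay within the control range, and the other CycGΔP libraries lay below it. Its log2 fold change of −0.51 did not pass (interval −1.02 to 0.0044, edgeR adjusted p-value 0.341), nor did any without 1 library, which ranged from −0.78 without CycGΔP replicate 2 (edgeR adjusted p-value 0.102) to −0.36 without CycGΔP replicate 3 (edgeR adjusted p-value 0.594).

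Ratios within a library do not depend on the scaling between libraries. These pairs, made of factors that act one after another or together in the prepupal cascade, were chosen after the values had been seen. The ratio of *Hr3* to *ftz-f1* counts was 1.38, 1.23 and 1.53 in CycGΔP discs and 0.180, 0.554 and 0.750 in control discs. As ratios of counts they are not corrected for length, so they show a difference between libraries and not which gene had more transcripts. The ratio of *Hr4* to *ftz-f1* was 10.8, 11.8 and 14.4 against 2.79, 5.03 and 6.55, again without overlap. The ratio of *Eip75B* to *Hr3* was 10.6, 11.8 and 12.3 in CycGΔP discs and 42.6, 21.0 and 13.1 in control discs. CycGΔP libraries held nearly the same ratio, and control libraries spread widely above it. No test is given for these 3 ratios, which combine genes already seen to differ in direction or size. *Hr4* and *Hr3* kept a more similar ratio, 7.81, 9.64 and 9.44 in CycGΔP discs and 15.5, 9.07 and 8.73 in control discs, which overlap. The ratio of *Eip78C* to *Eip75B* overlapped too, at 0.554, 0.384 and 0.580 in CycGΔP discs and 0.300, 0.263 and 0.400 in control discs.

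**Figure D3:**
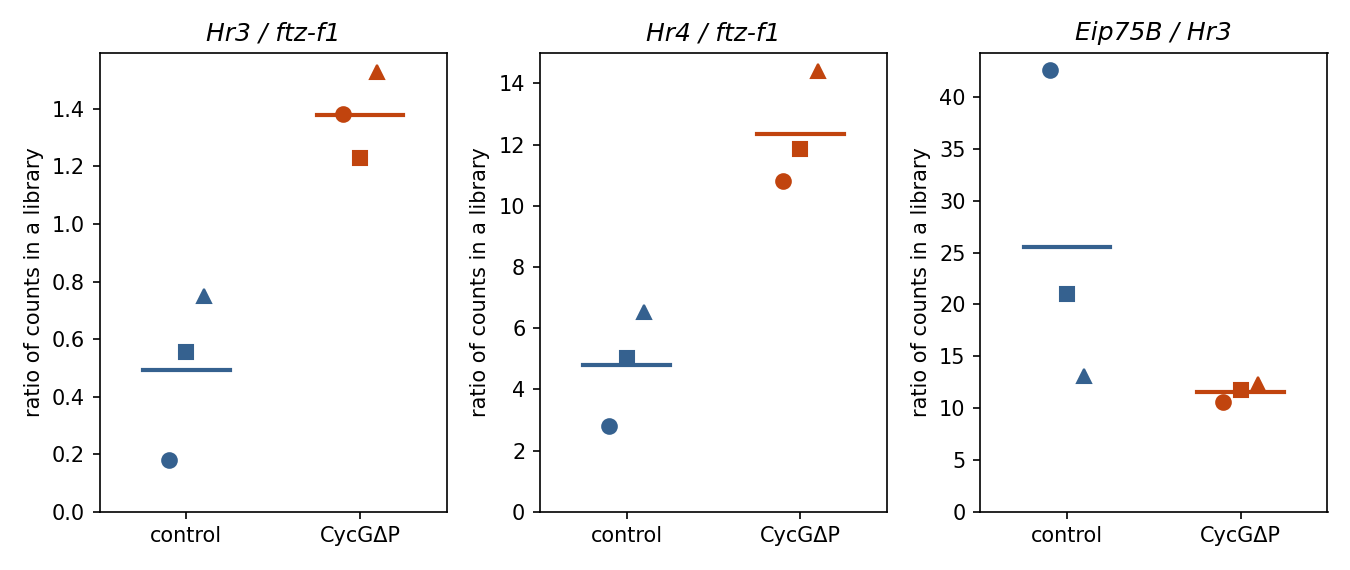
Ratio of the counts of 2 genes within each library, by group, for *Hr3* over *ftz-f1*, *Hr4* over *ftz-f1* and *Eip75B* over *Hr3*, with a bar for each group mean and marker shapes for replicates as in the plot of expression by library. All 3 ratios separate the groups, and control replicate 1 (circle) is the extreme control value in each (0.180, 2.79 and 42.6).

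Single libraries moved many members together. CycGΔP replicate 2 was the highest CycGΔP library for 8 of the 10 genes, whereas it was the highest for 38.1% of all tested genes. The exceptions were *usp* and *Eip78C*. In the controls, replicate 1 was the lowest library for 6 of the 10 genes, beside 33.8% of all tested genes, and these included *Eip78C*, *Hr3*, *Hr4* and *Hr39*. Control replicate 1 was also the library with the highest summed fat body markers (22890 CPM) and control replicate 3 the one with the lowest (742 CPM). CycGΔP replicate 2 held the highest summed haemocyte markers, where *Hml* made up 103 of 183 CPM. Of the other haemocyte markers, *eater* was also highest there (7.65 CPM). *NimC1*, *He* and *srp* were highest in CycGΔP replicate 3 (14.9, 14.8 and 15.8 CPM), and *Pxn* in control replicate 2 (49.6 CPM). The part of these markers in the levels of the 10 genes was not tested. Nor was that of the trachea, wing disc, muscle and male markers that separated the groups. With control replicate 1 and CycGΔP replicate 2 both left out, the log2 fold change was 0.73 for *Eip78C*, 0.45 for *Hr3*, 0.40 for *Hr4* and 0.19 for *Hr39*, and none was called by edgeR. In the same fit *EcR* (−0.12), *Eip74EF* (−0.062), *Eip75B* (−0.098) and *br* (−0.0025) were slightly below 0, and *ftz-f1* was at −0.72. This pair of libraries was left out as an alternative chosen after seeing the data. The median coefficient of variation of the 10 genes was 20.4% in CycGΔP discs and 13.3% in control discs, beside 10.4% and 9.22% over all tested genes.

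**Figure D4:**
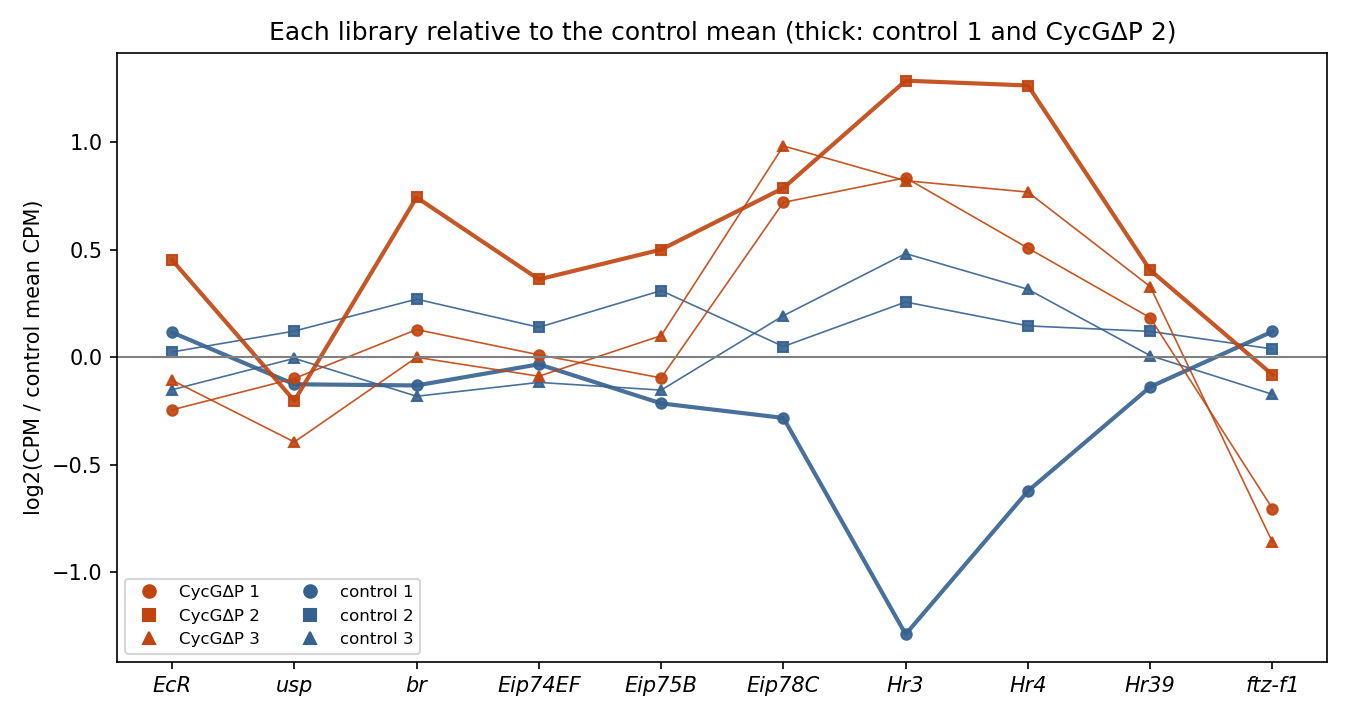
Log2 ratio of each library's CPM to the control mean for the 10 genes, with lines joining the values of a library and thick lines for control replicate 1 and CycGΔP replicate 2. CycGΔP replicate 2 is the top CycGΔP line except at *usp* and *Eip78C*, and control replicate 1 falls farthest at *Hr3* (−1.29).

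Levels of different genes were compared per kilobase of exon in the annotation. On this scale, in control discs, *br* was the highest member with 77.9 CPM per kb, followed by *Hr39* (27.0) and *usp* (24.2). *EcR* (12.4), *Eip74EF* (11.5) and *Eip75B* (11.1) were close to each other, and *Eip78C* (7.96) and *Hr4* (5.17) came next. *ftz-f1* (1.79) and *Hr3* (0.701) were the lowest. In CycGΔP discs *Eip78C* had 14.2 CPM per kb and so lay above *EcR* (13.03) in the order of the means, and *Hr3* (1.40) lay above *ftz-f1* (1.26). The levels of *Hr3* and *ftz-f1* on this scale are affected by overlapping genes. *Hr3* shares 61.8% of its exonic length with *CG12912* on the same strand, and *ftz-f1* shares 29.4% with *lncRNA:CR45939*. Reads that fall on shared exons cannot be assigned to either gene if the counting used the same gene models. *CG12912* had 0 counts in all 6 libraries and *lncRNA:CR45939* had at most 5. Per kilobase of unshared exon, *Hr3* had 1.83 and *ftz-f1* 2.54 CPM in control discs, and 3.66 and 1.79 CPM in CycGΔP discs. *usp* shares 15.2% of its length with *Actn* and *CG4313*, and the other members at most 0.936%.

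By likeness of profile, the genes nearest to *Eip78C* were *beat-IIb*, *CG5065* and *CG7720*. Likeness was the root-mean-square difference of centred log2 CPM over the 6 libraries, computed for the 8334 other tested genes that averaged 1 CPM or more and were counted in every library. The differences were 0.085, 0.11 and 0.11. Their log2 fold changes were 0.80, 0.66 and 0.68, which the choice by profile fixes as positive.

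Other genes of the pathway were taken from lists by function. Of 21 ecdysone-inducible effectors, 19 were tested and edgeR called 0, with 5 higher and 1 lower at an unadjusted p-value under 0.05, beside 6.65% and 8.07% of all tested genes. Their median log2 fold change was 0.10. DESeq2 called *Eip93F*, *E23* and *ImpE1* as higher and *Eip71CD* as lower, 4 of the 19, whereas it called 5.44% of all genes without the prior and 5.56% with it. As higher it called 2.37% and 2.40% of all genes. Limma voom called 0 of the list. The groups did not overlap for 8 of the 19, beside 22.0% of all tested genes, with 6 higher (9.98%) and 2 lower (12.1%). *Eip93F* (E93), the factor that directs adult differentiation in the pupa, had 3.62, 1.38 and 1.33 CPM in CycGΔP discs and 0.384, 0.196 and 0.279 CPM in control discs. This is 95, 29 and 38 counts against 12, 8 and 8, with CycGΔP replicate 1 far above the others. Its log2 fold change of 2.87 (interval 1.55 to 4.19, edgeR adjusted p-value 0.0709) was the largest of the list, though the level was low in every library. Over the alternatives its log2 fold change ranged from 0.64, under the DESeq2 prior, to 3.37. *E23*, an ABC transporter gene induced early by the hormone, had 31.5, 16.4 and 19.5 CPM against 12.1, 11.8 and 12.5 CPM (log2 fold change 0.89, edgeR adjusted p-value 0.159).

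*ImpE1*, an ecdysone-inducible gene of everting discs, had 496, 553 and 578 CPM in CycGΔP discs and 291, 370 and 451 CPM in control discs (log2 fold change 0.55, edgeR adjusted p-value 0.188). *ImpE2*, the most abundant of the list, overlapped between the groups, at 2464 to 3252 CPM and 2667 to 3670 CPM. *crol*, a zinc finger gene of the ecdysone response, also overlapped (log2 fold change 0.02). *Eip71CD*, which encodes a methionine sulfoxide reductase, had 61.7, 58.6 and 62.3 CPM in CycGΔP discs and 85.9, 68.3 and 76.0 CPM in control discs (log2 fold change −0.33, edgeR adjusted p-value 0.181). Outside the rule for named genes and chosen after their values were seen, *ImpE3* (log2 fold change 0.50), *ImpL2* (0.26) and *Eip63E* (0.10) were the other genes with all CycGΔP values above the controls. *Edg78E*, a prepupal cuticle gene chosen in the same way, had all of them below, at 0.105 to 0.343 against 0.417 to 0.703 CPM. This rests on only 9, 5 and 3 counts against 22, 17 and 15. *Edg84A*, another cuticle gene, had 0 counts in all libraries.

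**Figure D5:**
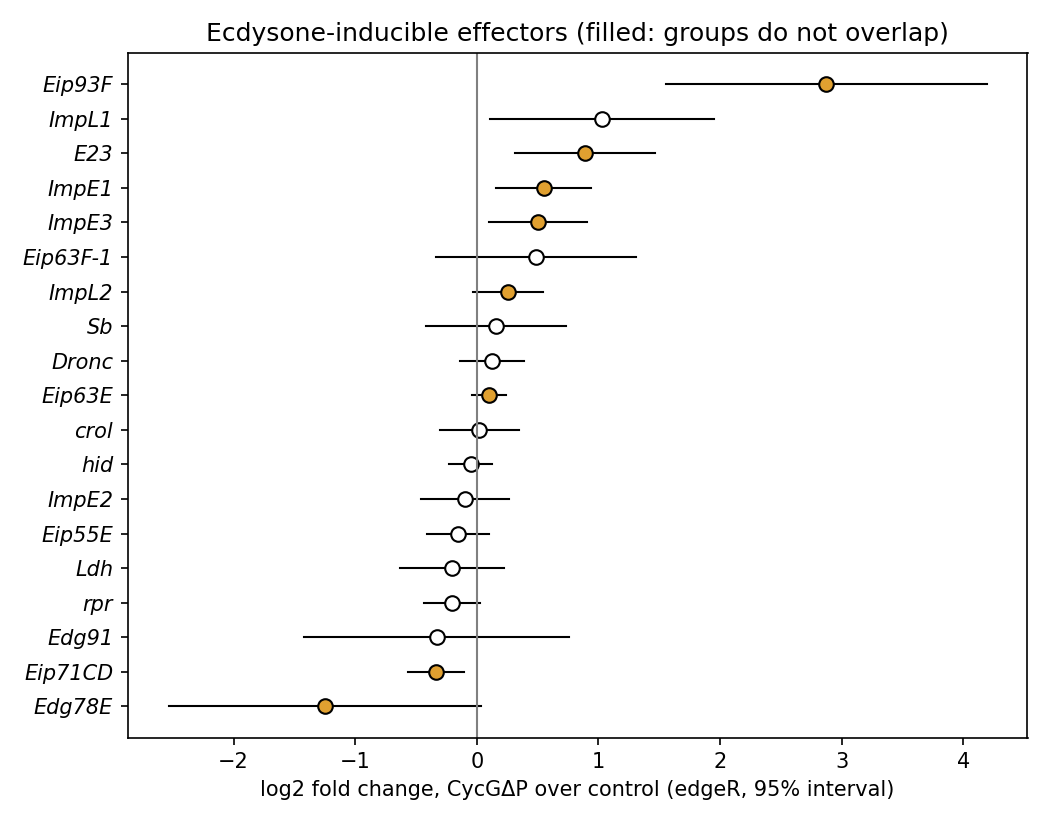
Log2 fold change, CycGΔP over control, of the 19 tested ecdysone-inducible effectors with 95% intervals from the edgeR fit, filled where the 3 values of one group all lie above those of the other. *Eip93F* (2.87) is at the top, *Edg78E* (−1.25, from 3 to 22 counts a library) at the bottom, and no gene passed the adjusted threshold.

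Among 13 other nuclear receptors, 9 were tested and edgeR called 0, and the median log2 fold change was 0.019. At an unadjusted p-value under 0.05, 1 gene was higher, beside 6.65% of all tested genes. That gene, *knrl*, a knirps-family factor of the wing veins and trachea, had 29.0, 37.5 and 27.5 CPM in CycGΔP discs and 21.0, 22.9 and 22.3 CPM in control discs (log2 fold change 0.50, edgeR adjusted p-value 0.13). DESeq2 called it as higher, beside 2.37% of all genes without the prior and 2.40% with it, and limma voom did not. *Hr78*, the most abundant, was at 137 to 142 CPM and 136 to 150 CPM. *Hnf4*, a regulator of lipid and glucose metabolism, and *kni* overlapped between the groups, with log2 fold changes of 0.02 and −0.07. The values of *svp* (0.19) and *eg* (0.32) also missed the threshold.

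All 9 receptor cofactors were tested and edgeR called 0, with 0 at an unadjusted p-value under 0.05, beside 14.7% of all tested genes. DESeq2 and limma voom also called 0. *Smr*, the corepressor of the unliganded receptor, had 212, 433 and 249 CPM in CycGΔP discs and 205, 229 and 265 CPM in control discs, so CycGΔP replicate 2 alone stood apart, as it did for *EcR*. *E(bx)*, a subunit of the NURF remodelling complex, likewise had 519 CPM in CycGΔP replicate 2, beside 360 and 357 CPM in replicates 1 and 3, and at most 413 CPM in control discs. *mbf1*, a coactivator, was at 182 to 184 CPM and 178 to 192 CPM. *rig*, a gene required for larval moulting, had 96.8 to 111 CPM and 117 to 138 CPM (log2 fold change −0.23, edgeR adjusted p-value 0.347). *DOR* (−0.49) and *Utx* (0.12) overlapped between the groups.

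Of 10 matched genes of hormone supply and breakdown, 8 were tested, and edgeR, DESeq2 and limma voom each called 0. At an unadjusted edgeR p-value under 0.05, 1 was higher, beside 6.65% of all tested genes. *EcI*, the importer that carries ecdysone into cells, was by far the most abundant, at 154 to 190 CPM in CycGΔP discs and 148 to 167 CPM in control discs. *dib*, a synthesis enzyme of the prothoracic gland, was the 1 gene, at 2.95 to 4.01 CPM against 1.96 to 2.59 CPM (log2 fold change 0.72, edgeR adjusted p-value 0.231). *shd*, which converts ecdysone into its active form in target tissues, had 4.76, 4.80 and 4.05 CPM in CycGΔP discs and 14.2, 2.80 and 2.12 CPM in control discs. Its high value lay in control replicate 1, the library with the most fat body marker RNA. Whether fat body RNA contributed to that value was not tested. *sad* (0.02), *Cyp18a1* (0.27) and *Eo* (−1.04) had log2 fold changes that did not pass.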

How the data were processed

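Poly(A) RNA libraries, made with a stranded kit, gave single-end 50 bp reads. The authors aligned reads to dm6 with TopHat2 2.0.10 and assigned unambiguously mapped reads to Ensembl genes with summarizeOverlaps in union mode. The authors deposited whole-number counts without normalization. In this mode reads that overlap 2 genes are not counted. The methods do not say whether strand was used in counting. The deposited normalized counts were not used here. Groups and replicate numbers came from the labels.

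The test was edgeR 4.0.16 (R 4.3.3), with TMM factors, the expression filter by group and a robust quasi-likelihood model of genotype alone. P-values were adjusted by Benjamini-Hochberg over 9408 genes, with a threshold of 0.05. Standard errors were computed from the fold change and F statistic, and 95% intervals are not adjusted for the number of genes. Each library holds 243 or more counts for every member except *Hr3* (at least 94), so counting error was small beside replicate spread; this covers counting error only. The scripts were tested on simulated data.

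Coordinates, exon lengths and symbols came from the Ensembl annotation in dm6 coordinates, which has 17219 of the 17478 identifiers. *nvd*, *Imp*, *wg* and *btl* were not matched and are not analysed here. The members, lists and ratios were chosen with earlier results of these data known. Named genes were all members and, per list, genes past the threshold, the 3 most abundant and the 3 with the smallest p-values. Alternatives were RLE and upper-quartile factors, DESeq2 1.42.0, limma 3.58.1 voom, other filters, left-out replicates, the replicate block, and an adjusted p-value under 0.01. No sequences are shown.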

Additional observations from a re-analysis of the deposited data

How the results depend on the processing

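Of the 160 values of single genes under the alternatives, 141 kept their direction and their side of the threshold, 10 lost the call, 2 gained it and 7 turned direction. All 10 lost calls were those of *Eip78C*, the only gene called, over its 16 alternatives. At an adjusted p-value under 0.01 the fit was the main one, so genes not called could not change there. The number of hormone-response genes called as higher was 1 and became 2 with DESeq2, without or with the prior (*Hr4* joined). It became 0 with limma voom (*Eip78C* adjusted p-value 0.0508), with the replicate block, at an adjusted p-value under 0.01, in each fit without 1 replicate (range 0 to 0), and without control replicate 1 and CycGΔP replicate 2 together, an alternative chosen after seeing the data. The number called as lower stayed at 0. Over all genes the 134 calls became 560 with DESeq2 without the prior, 527 with it, 14 at an adjusted p-value under 0.01, and 31 without the 2 libraries; leaving out 1 replicate gave 11 to 78 calls. Over all tested genes, control and CycGΔP libraries with the same number did not deviate together (correlations of −0.12, −0.29 and −0.15). Whether the numbers pair samples is not stated in the sources used here. So few libraries cannot decide it. A fit with the replicate block gave 2 calls over all genes.

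The log2 fold change turned for *EcR*, whose values without 1 replicate ranged from −0.17 (without CycGΔP replicate 2) to 0.19 and included −0.0081 without control replicate 3. It turned for *Eip74EF* without CycGΔP replicate 2 (range −0.038 to 0.20). Without the 2 libraries together it was −0.12 for *EcR*, −0.0025 for *br*, −0.062 for *Eip74EF* and −0.098 for *Eip75B*. Without 1 replicate, *br* ranged from 0.065 to 0.47 and *Eip75B* from 0.0046 to 0.36. The cause was not tested beyond the libraries left out. No direction turned under the other scaling methods. Depth limits only *Hr3* and *ftz-f1*, with at least 94 and 243 counts in a library.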

Other observations

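Genes that mark the passage of larval time were measured beside the hormone-response genes. Of 7 matched temporal and juvenile hormone factors, 6 were tested and edgeR called 0, as did the other tools. At an unadjusted edgeR p-value under 0.05, 1 gene was higher, beside 6.65% of all tested genes. That gene was the host transcript of the *let-7* microRNA cluster, which ecdysone induces at the end of larval life. It had 1.33, 3.09 and 2.44 CPM in CycGΔP discs and 0.895, 0.466 and 1.43 CPM in control discs (log2 fold change 1.30, edgeR adjusted p-value 0.304), from 19 to 70 counts a library, and the groups overlapped. *chinmo*, a factor of early larval stages, had 19.1, 41.9 and 19.8 CPM against 24.8, 16.4 and 20.9 CPM, so CycGΔP replicate 2 alone was high. *ab* was at 152 to 195 CPM and 160 to 203 CPM. *Kr-h1*, the main target of juvenile hormone, was at 26.6 to 33.7 CPM and 22.4 to 37.7 CPM. The juvenile hormone receptors *Met* and *gce* had log2 fold changes of 0.11 and 0.69, neither past the threshold.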
